A study of Mus musculus with 18 samples.

Results

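The 9 genes described here encode cytokines, or cytokine subunits, of the IL-12 and IL-6 families: Il12a, Il12b, Il23a, Il27 and Ebi3, and Il6, Il11, Lif and Osm. They were chosen by name, as 9 of the 21938 protein-coding genes of the GENCODE vM21 annotation (mm10), and the window of each was the gene body with the 5 kb before it and the 1 kb after it. The measurements were ChIP-seq peaks of H3K27me3 and H3K27ac in bone marrow-derived macrophages (BMDM), which are macrophages grown in culture from marrow cells. WT mice (labelled C57BL6), mdx mice (labelled Dmdmdx-4Cv, which carry a mutation in the dystrophin gene) and mdxTLR4-/- mice (labelled mTLR4 or mdxTLR4, strain Bl6/Bl10, which carry the mdx mutation and lack the receptor TLR4) were compared, and the study describes the mice as male and on a C57BL/6J background. Marrow of all 3 genotypes was grown for 7 days with L929 cell supernatant, a source of macrophage colony-stimulating factor, and no stimulus was added. Each genotype had 2 ChIP and 2 input libraries for H3K27me3. For H3K27ac there were 2 ChIP libraries of WT, 2 of mdx and 1 of mdxTLR4-/- BMDM, with 1 input library of no stated genotype. Replicates were merged before peaks were called, so each mark and genotype has 1 peak list, the spread between mice is not known and no difference between genotypes was tested. The labelled ages rose by exactly 1 week from each sample to the next over all 18 samples, inputs included, from 6 to 23 weeks, and whether they are the true ages of the mice is not known. If they are, age and genotype cannot be told apart.

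Cytokines of the IL-12 family are pairs of subunits, with IL-12 made of p35 (Il12a) and p40 (Il12b), IL-23 of p19 (Il23a) and p40, and IL-27 of p28 (Il27) and EBI3 (Ebi3). Cytokines of the IL-6 family bind receptors that share the chain gp130 (Il6st), and both families signal through JAK kinases and STAT transcription factors. H3K27me3 is laid down by the Polycomb complex PRC2 and marks silent genes, often at CpG-rich DNA, whereas H3K27ac marks active promoters and enhancers. In macrophages Il12b, Il23a and Il6 are known as genes that are induced when TLR4 or another microbial sensor is engaged.

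The 9 genes fell into 3 groups of 3. Il12a, Il11 and Lif lay under H3K27me3 in all 3 genotypes and carried no H3K27ac. Il12b, Il23a and Osm had an H3K27ac peak in the window in at least 1 genotype and no H3K27me3. The Il12b peak lay past the 3′ end of the gene, and the Il23a peak found in every list lay over the start of a neighbouring gene, Pan2. Within 2500 bp of the gene start, Il23a alone had H3K27ac, in mdxTLR4-/- BMDM only. Il27, Ebi3 and Il6 had no peak of either mark in any list. Of all protein-coding genes 44.5% had H3K27me3 and 48.1% had H3K27ac in the window in any list. No member held both marks, compared with 16.4% of all genes, and 23.8% of all genes held neither. With 9 genes, these counts describe the members and were not tested against the background.

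The sequence at the starts of these genes is shown because the 3 genes under H3K27me3 each have an internal start, downstream of the first, that lay under the mark in every genotype. The internal starts were singled out after the peaks were seen. The runs below are the 250 bases upstream of each start (5′ to 3′ along the gene, RefSeq starts on GRCm38.p6), with each CpG in capitals. The first pair is Il12a, upstream start (chr3:68690394-68690643) and internal start (chr3:68691174-68691423, in the first intron of the longer transcript), both on the plus strand.
Il12a upstream start: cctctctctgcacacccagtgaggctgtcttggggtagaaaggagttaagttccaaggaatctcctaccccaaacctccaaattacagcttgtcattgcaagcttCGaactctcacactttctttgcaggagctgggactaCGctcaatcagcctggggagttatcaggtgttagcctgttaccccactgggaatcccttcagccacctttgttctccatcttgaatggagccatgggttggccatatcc
Il12a internal start: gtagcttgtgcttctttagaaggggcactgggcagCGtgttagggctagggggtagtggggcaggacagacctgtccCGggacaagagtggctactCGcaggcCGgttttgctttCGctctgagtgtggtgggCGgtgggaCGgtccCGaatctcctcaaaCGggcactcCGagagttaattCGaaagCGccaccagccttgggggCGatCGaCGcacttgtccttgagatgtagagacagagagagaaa
The 2 runs hold 2 and 15 CpG respectively. The next pair is Il11, on the minus strand, with its upstream start (chr7:4782858-4783107) and its internal start (chr7:4778142-4778391).
Il11 upstream start: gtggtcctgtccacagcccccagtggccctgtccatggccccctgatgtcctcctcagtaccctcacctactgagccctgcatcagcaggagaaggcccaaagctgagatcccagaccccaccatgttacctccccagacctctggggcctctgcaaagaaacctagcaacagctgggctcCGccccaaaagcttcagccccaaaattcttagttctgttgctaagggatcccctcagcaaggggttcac
Il11 internal start: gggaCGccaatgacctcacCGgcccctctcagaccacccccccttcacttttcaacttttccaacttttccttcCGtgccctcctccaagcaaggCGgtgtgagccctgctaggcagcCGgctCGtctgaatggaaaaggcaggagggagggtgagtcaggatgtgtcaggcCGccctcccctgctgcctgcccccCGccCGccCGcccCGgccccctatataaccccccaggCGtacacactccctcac
These runs hold 1 and 12 CpG. For contrast, the last pair is from members without H3K27me3, Il12b (chr11:44399813-44400062) and Il6 (chr5:30012864-30013113), both on the plus strand.
Il12b start: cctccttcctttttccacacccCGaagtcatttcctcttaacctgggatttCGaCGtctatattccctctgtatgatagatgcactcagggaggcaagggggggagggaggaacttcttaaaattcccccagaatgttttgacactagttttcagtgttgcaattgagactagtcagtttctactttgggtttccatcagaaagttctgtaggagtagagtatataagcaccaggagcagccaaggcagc
Il6 start: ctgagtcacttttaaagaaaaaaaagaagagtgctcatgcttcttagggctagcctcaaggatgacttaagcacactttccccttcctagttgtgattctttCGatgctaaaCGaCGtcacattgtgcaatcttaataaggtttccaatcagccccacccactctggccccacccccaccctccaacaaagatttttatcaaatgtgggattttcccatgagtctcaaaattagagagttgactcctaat
Each of these holds 3 CpG.

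The promoter table held 6 of the 9 members, with entries for Il12a, Il12b, Ebi3, Il6, Il11 and Lif. None was used for Il23a, Il27 and Osm. Lif had an entry for its upstream start alone, so its internal start, at +9538 bp, was not counted. Over 300 bases around each start (250 before and 50 after), the internal starts held 16 CpG in Il12a and 13 in Il11. The upstream starts of the same 2 genes held 3 and 1. Lif had 7 at its upstream start, Il12b 4, Il6 3 and Ebi3 2, against a median of 7 over 32851 mouse promoters. The internal starts of Il12a and Il11 thus lay at percentiles 68.6 and 63.7 of all promoters, and the upstream starts at percentiles 31.4 and 14.1. Across all promoters, a WT H3K27me3 peak lay over 19.6% of the starts with up to 4 CpG, 30.9% of those with 5 to 14 and 21.8% of those with 15 or more.

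**Figure D1:**
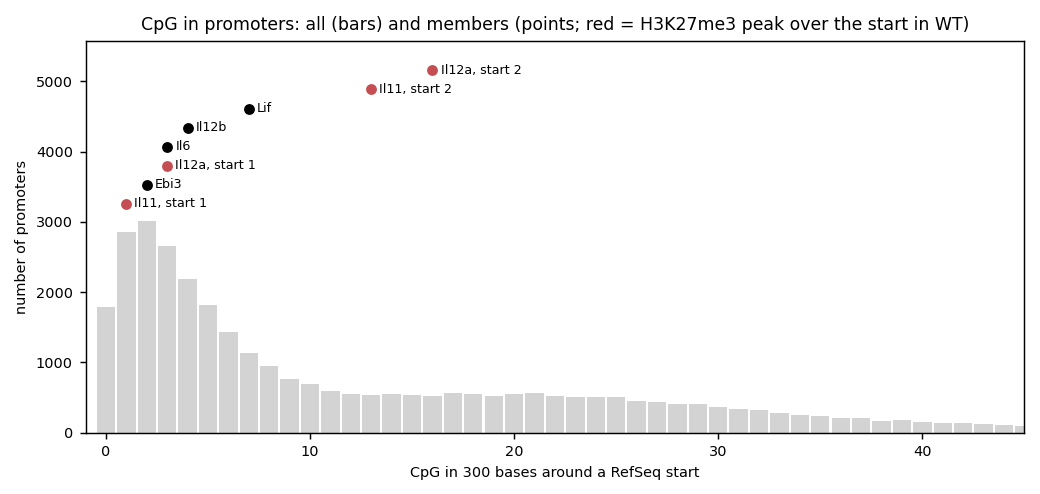
Number of mouse promoters (y axis, bars) by the number of CpG in 300 bases around the start (x axis), drawn up to 45 CpG. Points mark the starts of the 6 members in the table, at heights chosen only to separate them, and red points had an H3K27me3 peak over the start in WT BMDM. The internal starts of Il11 and Il12a (start 2) sit at 13 and 16 CpG, and all other member starts drawn at 7 or fewer. The internal start of Lif had no entry and is not drawn.

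The same 300 bases were searched on both strands for 6 short motifs, and matches on opposite strands or shifted by 1 base were counted as found. The NF-kappaB pattern (GGG, any 5 bases, CC), which 50.8% of all promoters hold, matched in Il12a (internal start), Ebi3, Il6, Il11 (upstream start) and Lif. In Il6 it read GGGATTTTCC from base -44 to -35 of the start, within the Il6 run printed above. The AP-1 pattern TGANTCA (7.81% of promoters) matched in Il6 from -249 to -243, in Il11 upstream of its internal start from -98 to -92, and in Lif from -228 to -222. The C/EBP pattern TTNCNNAA (40.7% of promoters) matched in Il6 only among the 6 members, as TTGCACAA on the minus strand from -128 to -121. No member start matched the ISRE pattern (GAAA, any 2 bases, GAAA; 3.44% of promoters), the PU.1 pattern GAGGAAGT (3.2%) or the TATA box TATAAA (13.6%), and the start of Il12b matched none of the 6 patterns. A match of letters is a description and does not show that a factor binds. The patterns are fixed letters, so the lack of a match does not show that an element is absent. For example, the printed runs of Il12b and of the Il11 internal start both hold tatataa, which TATAAA does not match.

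An H3K27me3 peak lay in the window of 3 of the 9 members in each list. Over all protein-coding genes the share was 38.4%, 41.3% and 39.0% in WT, mdx and mdxTLR4-/- BMDM, respectively, and 34.8% of genes had a peak in all 3 lists. A window was counted as having gained or lost a mark when it went from no peak to at least 1 peak, or the reverse. No member window gained or lost H3K27me3 in this sense between any 2 lists, whereas 4.82% of gene windows gained and 1.92% lost it in mdx against WT. In mdxTLR4-/- against mdx these shares were 2.03% and 4.31%, and against WT 3.53% and 2.91%. The annotated starts of protein-coding transcripts showed the position of the mark. Of the 16 distinct coding starts of the 9 members, 6, 4 and 6 lay under H3K27me3 in WT, mdx and mdxTLR4-/- BMDM, respectively, compared with 21.2%, 21.6% and 20.6% of 54361 coding starts genome-wide. The only starts that differed between lists were those of Il11 at 0 and +2 bp, which lie at the same domain edge.

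Il12a (ENSMUSG00000027776.12, chr3:68690644-68698547, plus strand) encodes p35, the subunit particular to IL-12 and IL-35. Relative to its start, the domain over the gene ran from -443 to +3556 bp in WT, from -443 to +4156 bp in mdx and from -643 to +2956 bp in mdxTLR4-/- BMDM. It held 191, 240 and 145 reads in WT, mdx and mdxTLR4-/- BMDM, respectively. Both coding starts of Il12a, at 0 and +780 bp, lay within it in every list. The domain covered 4, 4 and 3 of the 8 exons in the same order and left the 3′ part of the gene bare. Its read density was among the higher values of each list, at percentile 96.0, 94.9 and 91.2 in WT, mdx and mdxTLR4-/- BMDM, respectively.

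The primer pair that the study used for ChIP-qPCR at Il12a also lay at the internal start. The forward primer atcgacgcacttgtccttga matched chr3:68691382-68691401, at +738 to +757 bp, and the reverse primer attgtctggatagccggcag matched chr3:68691450-68691469 on the minus strand, at +806 to +825 bp. Each matched once on chromosome 3. The amplified stretch lay under the H3K27me3 peak in all 3 lists and within the 500 bp of the Il12a window with the most CpG (24 CpG, +420 to +919 bp).

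In mdx BMDM alone, a separate and sparser peak lay upstream of Il12a, from -5843 to -2644 bp, with 61 reads and 19.1 reads per kb. Its density stood at percentile 2.3 of the mdx list. Because of it the share of the Il12a window under H3K27me3 was 50.04% in mdx, compared with 28.8% in WT and 25.9% in mdxTLR4-/- BMDM. The difference was +21.3 percentage points in mdx against WT, where 4.9% of genes were higher by 10 points or more. It was -24.15 points in mdxTLR4-/- against mdx, where 7.73% of genes were lower by as much. The H3K27me3 coverage of no other member differed by 10 points in any pair of lists, while 5.51% of genes were lower in mdx than in WT, 2.52% were higher in mdxTLR4-/- than in mdx, and 2.61% were higher and 8.41% lower in mdxTLR4-/- than in WT. When peaks were kept only at a density of at least 1.5 times the 1st percentile of their list, the upstream peak dropped out, the mdx value was 33.1%, and neither difference reached 10 points. The same happened when an equal number of peaks was taken from each list. Within 2500 bp of the Il12a start, coverage was 58.9%, 58.9% and 62.9% in WT, mdx and mdxTLR4-/- BMDM, respectively. The lists thus differed upstream and at the 3′ edge of the domain and were close to each other around the start.

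Il11 (ENSMUSG00000004371.15, chr7:4772373-4782859, minus strand) encodes IL-11, a cytokine of stromal cells that is linked to fibrosis. A single dense domain held 885 reads over 18800 bp in WT, 901 reads over 13600 bp in mdx and 682 reads over 11000 bp in mdxTLR4-/- BMDM. All 6 exons lay under it in each list. It took up 75.4%, 69.3% and 66.7% of the window in the order WT, mdx, mdxTLR4-/-. On the 3′ side, largely outside the window, the mark was called in separate pieces. The peak over the gene ended at +17858 bp in WT, +13658 bp in mdx and +10858 bp in mdxTLR4-/- BMDM, and 1, 2 and 3 further peaks followed it in the same order. Together the peaks of the region covered 26200, 23600 and 23600 bp.

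The 5′ edge of the Il11 domain fell at the upstream start. It lay at -941 bp in WT and -141 bp in mdxTLR4-/- BMDM, beyond the start, and in mdx BMDM it stopped 59 bp inside the gene. The first 2 of the 3 coding starts of Il11, at 0 and +2 bp, were therefore under the mark in WT and mdxTLR4-/- BMDM, and outside it in mdx BMDM. A distance of 59 bp is below the 200 bp step of the peak caller. The internal start of Il11, at +4718 bp, was covered in all 3 lists. Tmem190, a gene on the opposite strand whose start is 78 bp from that of Il11, shared the edge, with its start outside the domain in mdx BMDM and inside it in the other 2 lists. Within 2500 bp of the Il11 start, coverage was 68.8%, 48.8% and 52.8% in WT, mdx and mdxTLR4-/- BMDM, respectively.

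Lif (ENSMUSG00000034394.14, chr11:4257557-4272514, plus strand) encodes leukemia inhibitory factor. Its upstream start was free of H3K27me3 in every list, and the nearest peak began 2044, 4444 and 3844 bp downstream in the order WT, mdx, mdxTLR4-/-. In WT BMDM the mark was split into 3 peaks with 314, 251 and 385 reads. In mdx BMDM it formed 1 domain with 848 reads, and in mdxTLR4-/- BMDM 1 domain with 749 reads. The internal start of Lif, at +9538 bp, was covered in all 3 lists. The share of the window under peaks was 58.8%, 54.9% and 57.8% in WT, mdx and mdxTLR4-/- BMDM, so the Lif window was covered to a like extent whether the mark was called as 3 peaks or 1.

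The gap between the first and second WT peaks of Lif ran across the stretch of the window with the most CpG. This stretch (chr11:4266606-4267105, +9049 to +9548 bp) held 56 CpG in 500 bp and included the internal start of Lif at +9538 bp. Only 105 bp of it lay under a WT peak, while all 500 bp lay under the domains of mdx and mdxTLR4-/- BMDM. The first WT peak ended at chr11:4266200 and the second began at chr11:4267001. This gap is little longer than the 600 bp that the peak caller bridges. In Il11 the corresponding stretch held 41 CpG, at +5479 to +5978 bp, and was under the mark in all 3 lists. Bases of the window under H3K27me3 in all 3 lists held 20.0 CpG per kb in Il12a, 18.1 in Il11 and 16.6 in Lif. Bases under none held 9.34, 11.3 and 10.9 CpG per kb. Bases under the mark in all 3 lists were thus richer in CpG than bases under none, although most of the densest stretch of Lif lay outside the WT peaks. The same contrast over all genes was not tested. Of all genes with the mark in all 3 lists, 63.7% also had a coding start under it in all 3.

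**Figure D2:**
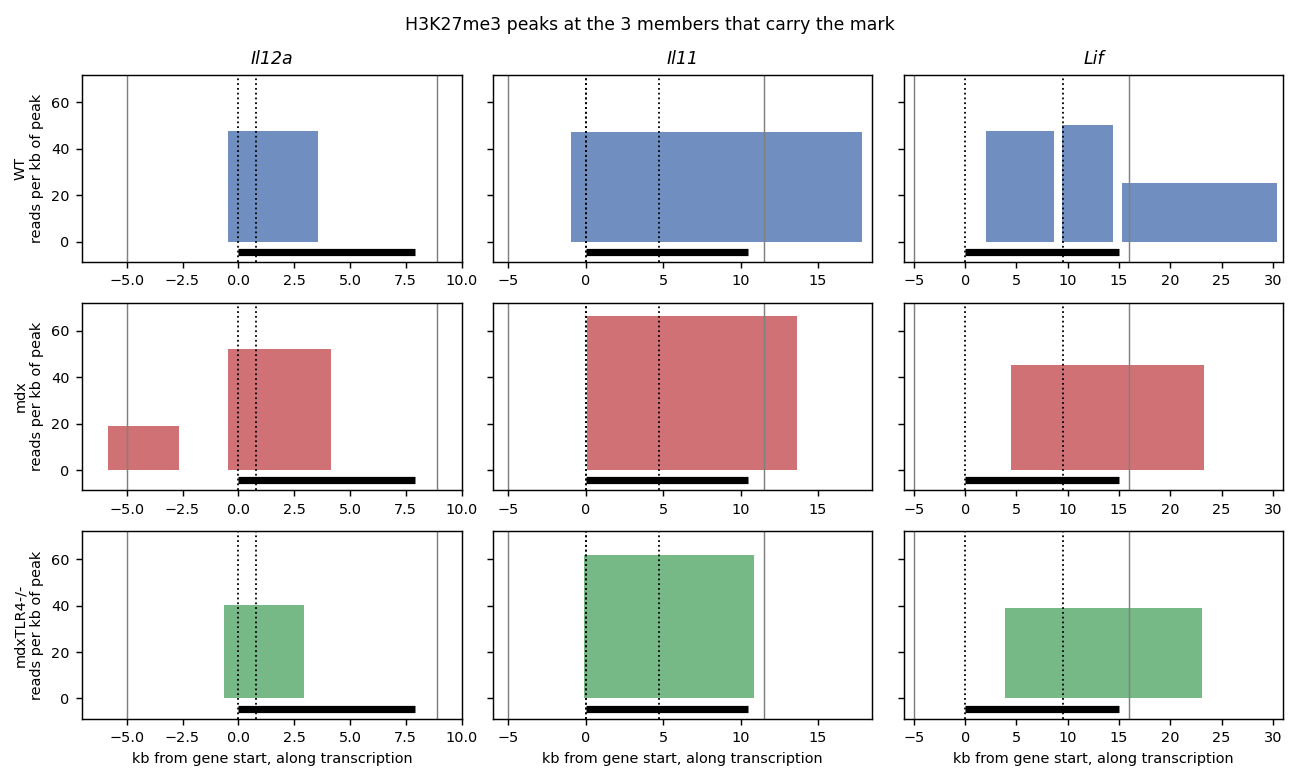
H3K27me3 peaks of WT, mdx and mdxTLR4-/- BMDM (rows) at Il12a, Il11 and Lif (columns), drawn as blocks from edge to edge (x axis, kb from the gene start along transcription) with the height in reads per kb of peak (y axis). The black bar is the gene body, dotted lines are coding starts and grey lines bound the window. The right-hand dotted line of each gene, the internal start, falls inside a block in all 3 rows.

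Among the bases of each window that lay under a peak in any list, 86.9% in Il11, 71.25% in Lif and 47.5% in Il12a lay under peaks in all 3. Il11 was thus the most alike between the lists and Il12a the least, on account of the upstream mdx peak. The protein-coding genes whose coverage over the 6 lists was closest to that of each member were Nid1 and Rnf182 for Il12a, at distances of 2.6 and 2.64 percentage points. They were Scnn1b and Svs6 for Il11, at 1.09 and 1.63 points, and Adamts7 and Lrg1 for Lif, at 0.887 and 1.28 points.

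**Figure D3:**
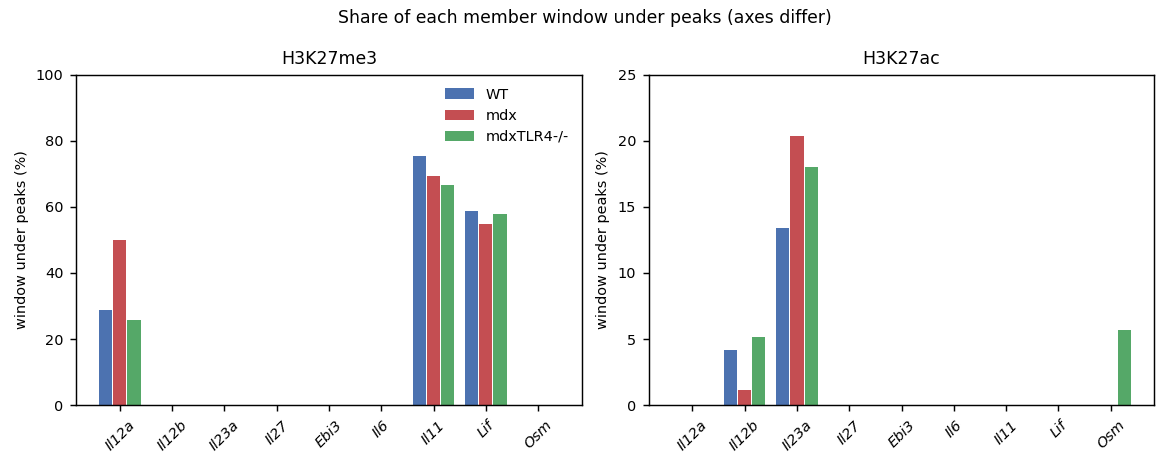
Percent of the window under H3K27me3 (left) and H3K27ac (right) peaks for the 9 members, with 1 bar for each genotype and no error bar because each bar is 1 list. The y axes differ, from 0 to 100% on the left and 0 to 25% on the right. H3K27me3 bars stand at Il12a, Il11 and Lif, H3K27ac bars at Il12b, Il23a and Osm, and no gene has both.

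Read density was then compared over regions made by joining overlapping peaks of the 3 genotypes, which may run past the window. The Il12a region (chr3:68690001-68694800) held 47.8, 52.2 and 40.3 reads per kb in WT, mdx and mdxTLR4-/- BMDM. The Il11 region (chr7:4756401-4783800) held 40.5, 50.6 and 41.0 reads per kb in the same order. The Lif region (chr11:4259601-4295000) held 33.8, 38.9 and 33.5 reads per kb. In each of the 3 regions mdx had the highest unscaled density.

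The ratio of mdx to WT was 1.09 for Il12a (95% interval 0.900 to 1.33), 1.25 for Il11 (1.15 to 1.36) and 1.15 for Lif (1.06 to 1.25). The intervals are exact intervals of the read counts and cover counting error only. Over all 19700 regions shared by the 2 lists the median ratio was 1.22, so the median of the 3 member regions, 1.15, lay slightly below that of all regions. The ratio of mdxTLR4-/- to mdx was 0.772 for Il12a (0.624 to 0.953), 0.81 for Il11 (0.743 to 0.882) and 0.862 for Lif (0.789 to 0.940), and the median of all regions was 0.789. None of the 3 regions differed in density by 1.5-fold in any pair of lists, whereas 8.99% of all regions were denser by as much in mdx than in WT and 0.198% sparser. In mdxTLR4-/- against mdx these shares were 0.592% and 15.0%, and in mdxTLR4-/- against WT 1.95% and 2.39%. With reads not divided by the covered length, the ratio of mdxTLR4-/- to mdx was 0.604 for Il12a, past 1.5-fold, as it was for 39.2% of all regions.

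The direction of these ratios depended on the scaling. Per 1000000 reads in peaks, mdx to WT was 0.892 for Il12a, 1.02 for Il11 and 0.940 for Lif, and mdxTLR4-/- to mdx was 1.07, 1.12 and 1.19. The median of all regions sets the shift that the lists share. Relative to it, mdx to WT was 0.897 for Il12a (0.739 to 1.09), 1.03 for Il11 (0.945 to 1.12) and 0.946 for Lif (0.869 to 1.03), and every interval held 1. Relative to the same median, mdxTLR4-/- to mdx was 0.978 for Il12a (0.790 to 1.21), 1.03 for Il11 (0.942 to 1.12) and 1.09 for Lif, whose interval began at 1.0 and ended at 1.19. At this number of reads, the counting intervals relative to this median did not separate mdx from WT at these genes. They leave out the spread between mice, and what the shift of the whole list reflects was not tested.

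**Figure D4:**
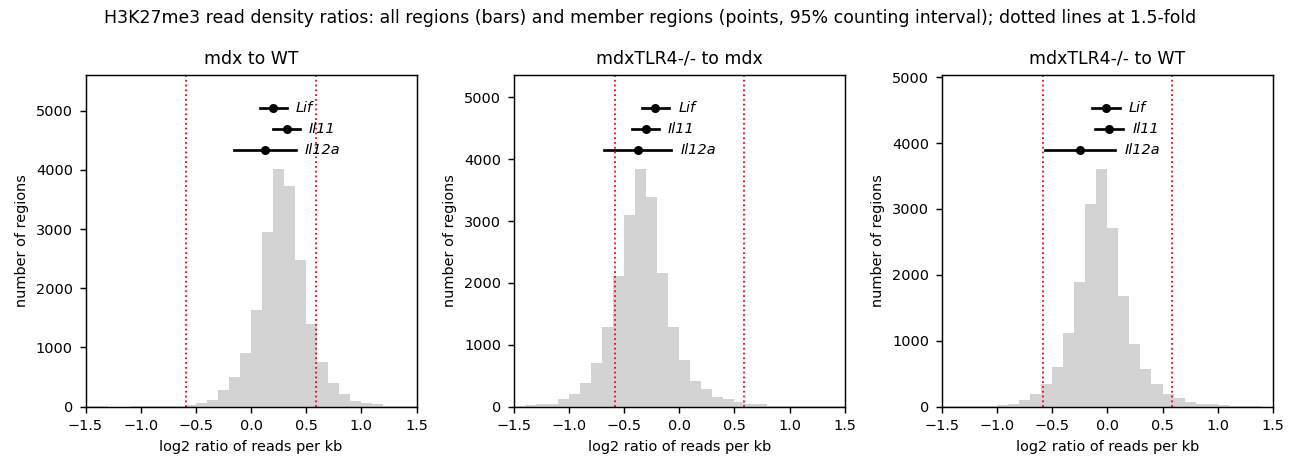
Number of H3K27me3 regions (bars, y axis) by the log2 ratio of reads per kb between 2 lists (x axis), for the 3 pairs of genotypes. Points with lines are the Il12a, Il11 and Lif regions with 95% counting intervals, at heights chosen only to separate them, and dotted red lines mark 1.5-fold. All 9 points lie between the dotted lines and within the body of the bars.

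An H3K27ac peak lay in the windows of 2, 2 and 3 members in the order WT, mdx, mdxTLR4-/-, compared with 39.9%, 34.5% and 36.5% of all protein-coding genes. Il12b and Il23a had a peak in all 3 lists, as did 26.7% of all genes. None of the 16 coding starts of the 9 members lay under H3K27ac in any list, compared with 24.9%, 21.3% and 21.8% of coding starts genome-wide. The member peaks held few reads, 6 to 24, as did the lists, whose median peak held 8 to 10. By reads, the member peaks stood at percentiles 34.7 to 83.3 of their lists. The mdxTLR4-/- list rests on 1 library.

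Il12b (ENSMUSG00000004296.14, chr11:44400063-44414033, plus strand) encodes p40, the subunit shared by IL-12 and IL-23. Its H3K27ac peak lay past the 3′ end of the gene in every genotype. The peak began at +14138 bp with 13 reads in WT, at +14738 bp with 8 reads in mdx and at +13938 bp with 9 reads in mdxTLR4-/- BMDM. The 3 peaks overlapped each other, and the mdxTLR4-/- peak alone reached the last exon, by 33 bp. No peak of H3K27ac lay in the 5 kb upstream of Il12b, the window that the study used for this mark. The nearest H3K27me3 peak was 17.9 to 19.5 kb downstream of the Il12b start.

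Il23a (ENSMUSG00000025383.2, chr10:128296139-128298752, minus strand) encodes p19, the subunit particular to IL-23. In all 3 lists the H3K27ac peak in its upstream window lay over the start of Pan2, a gene on the opposite strand that encodes a subunit of an mRNA deadenylase, 4583 bp from the Il23a start. It held 24 reads over 2000 bp in WT, 17 over 3600 bp in mdx and 15 over 1600 bp in mdxTLR4-/- BMDM. This peak cannot be assigned to Il23a rather than to Pan2. In mdxTLR4-/- BMDM alone, a second peak of 400 bp with 6 reads lay over the annotated start of Il23a, from -248 to +151 bp. The annotated start of a gene lay under H3K27ac for 24.0%, 20.6% and 20.9% of all genes in the lists of WT, mdx and mdxTLR4-/- BMDM. The start of the coding transcript of Il23a is at +668 bp, and the peak ended before it.

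Osm (ENSMUSG00000058755.3, chr11:4236420-4241026, plus strand) encodes oncostatin M and lies upstream of Lif on the same chromosome. It had no peak of H3K27ac in WT or mdx BMDM and a peak of 600 bp with 7 reads in mdxTLR4-/- BMDM, from -4219 to -3620 bp. Osm was the only member whose window went from no H3K27ac peak to a peak between lists, and the second peak of Il23a in mdxTLR4-/- BMDM was added to a window that already held one. Over all protein-coding genes 8.19% gained an H3K27ac peak in mdxTLR4-/- against mdx, 5.23% in mdxTLR4-/- against WT and 4.61% in mdx against WT, and 3.59% had a peak in mdxTLR4-/- BMDM alone. No member window lost H3K27ac, while 9.94% of genes lost it in mdx against WT, 6.19% in mdxTLR4-/- against mdx and 8.55% in mdxTLR4-/- against WT. With peaks of at least 10 reads only, the Osm peak and the peaks of Il12b in mdx and mdxTLR4-/- BMDM were not kept. The nearest H3K27me3 to Osm was the domain over Lif, 23.2 to 25.6 kb downstream.

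**Figure D5:**
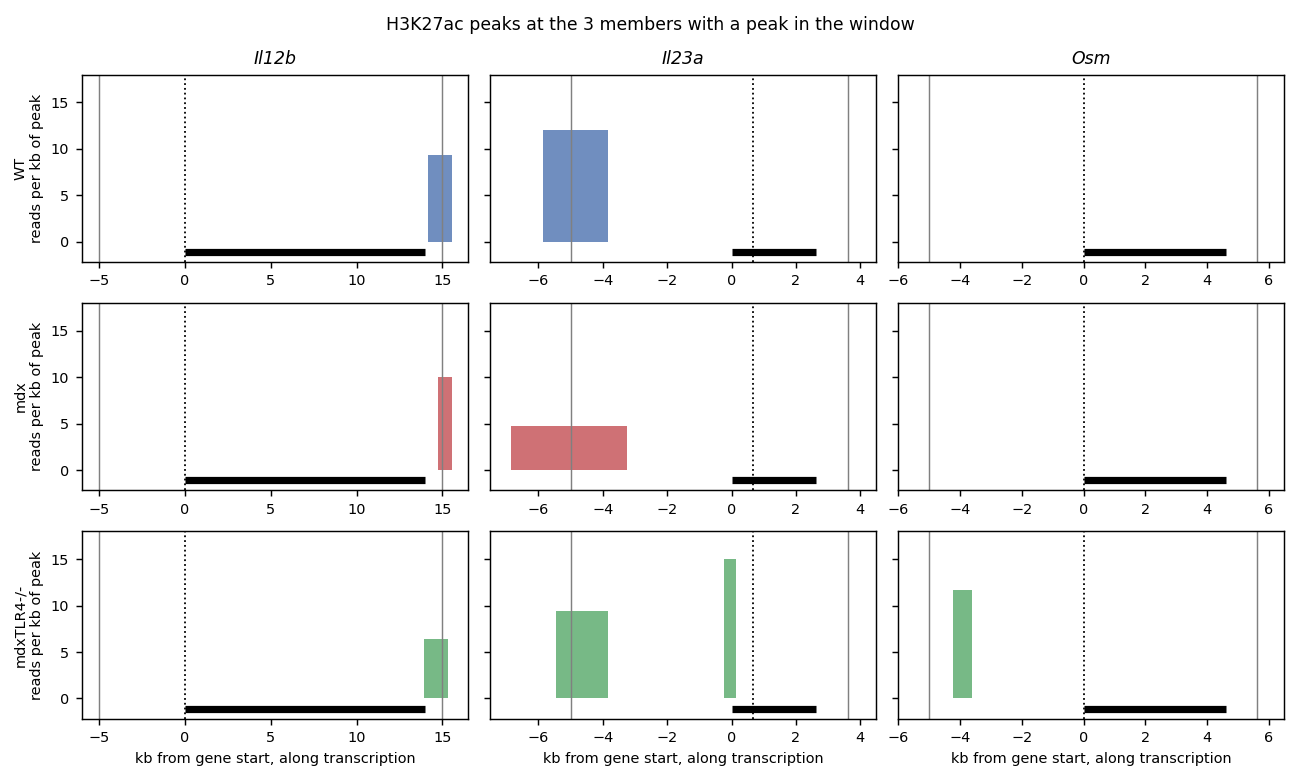
H3K27ac peaks of WT, mdx and mdxTLR4-/- BMDM (rows) at Il12b, Il23a and Osm (columns), drawn as blocks (x axis, kb from the gene start along transcription) with the height in reads per kb of peak (y axis). The black bar is the gene body, dotted lines are coding starts and grey lines bound the window. The Il12b block lies past the gene in all rows, the left-hand Il23a block lies over the start of Pan2, and the small blocks at the Il23a start and upstream of Osm appear in the mdxTLR4-/- row alone.

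The H3K27ac read density of the peak at Il12b was 9.29, 10.0 and 6.43 reads per kb in WT, mdx and mdxTLR4-/- BMDM. That of the peak between Il23a and Pan2 was 12.0, 4.72 and 9.38 reads per kb. For this peak the ratio of mdx to WT was 0.394 (0.198 to 0.764) and the ratio of mdxTLR4-/- to mdx was 1.99 (0.923 to 4.23). For Il12b the ratio of mdxTLR4-/- to mdx was 0.643 (0.220 to 1.92). These 3 ratios passed 1.5-fold, as did 28.7% of all regions that were sparser in mdx than in WT, and 19.9% and 21.8% that were denser and sparser in mdxTLR4-/- than in mdx. In mdx against WT 14.1% of regions were denser by 1.5-fold. Neither peak passed 1.5-fold in mdxTLR4-/- against WT, where 13.2% of regions were denser and 30.5% sparser. These ratios rested on the lengths called as peaks. With reads not divided by length, the ratio of mdx to WT at Il23a was 0.708, no longer past 1.5-fold and near the median of all regions, 0.788. At Il12b that ratio turned from 1.077 to 0.615, past 1.5-fold, as it was for 33.9% of regions. Both ratios of mdxTLR4-/- to mdx also turned, to 0.882 for Il23a and 1.125 for Il12b. The ratio of mdxTLR4-/- to WT at Il23a went from 0.781 to 0.625, past 1.5-fold, as it was for 48.9% of regions. Per 1000000 reads in peaks, mdx to WT was 1.54 for Il12b, and mdxTLR4-/- to WT was 0.606 for Il12b when each density was divided by the 1st percentile of its list. The share of all regions past 1.5-fold was not computed under these scalings, so whether such values are unusual is not known. Each of the 6 ratios was thus past 1.5-fold under at least 1 setting and short of it under another.

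Il27, Ebi3 and Il6 had no peak of either mark in the window in any list. The nearest H3K27ac peak to Il27 (ENSMUSG00000044701.5, chr7:126589010-126594941, minus strand) lay 8.54 kb downstream of its start in WT, 9.34 kb in mdx and 8.74 kb in mdxTLR4-/- BMDM, past the end of the window, with 39, 28 and 28 reads. For Ebi3 (ENSMUSG00000003206.7, chr17:55952640-55957022, plus strand) the nearest lay 5.76, 5.96 and 5.84 kb away with 10, 10 and 20 reads, downstream in WT and mdx and upstream in mdxTLR4-/- BMDM. Both lay just outside the limits of the rule. Il6 (ENSMUSG00000025746.11, chr5:30013114-30019981, plus strand) encodes IL-6 and was the more isolated of the 3, with its nearest H3K27ac peak 59.9 kb away in WT and 141 kb away in mdx and mdxTLR4-/- BMDM. A small H3K27me3 peak of 31 reads lay 8.09 kb downstream of the Il6 start in mdx BMDM, outside the window. The absence of a called peak does not show that the mark is absent, and the input and ChIP signal at these genes were not analysed here.

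The receptors, kinases, transcription factors, inhibitors and other ligands of the 2 families were read from a list of 20 genes. H3K27me3 was found at 9, 9 and 8 of them in the order WT, mdx, mdxTLR4-/-, and 7 had it in all 3 lists. The shares of all genes were 38.4%, 41.3% and 39.0%, with 34.8% in all 3 lists, so the list was near the background. Clcf1, a ligand of the IL-6 family, was 100%, 90.8% and 94.8% covered in the same order. Among the chains that pair with gp130 for OSM and LIF, coverage was high as well, with Osmr at 98.2%, 97.0% and 88.4% and Lifr at 75.2%, 81.6% and 77.3%. Il27ra, a receptor chain for IL-27, was at 81.4%, 79.2% and 90.2%, and Il11ra1, the IL-11 receptor, was at 35.0%, 34.5% and 32.6%. Among these 5 genes Lifr and Il11ra1 had H3K27ac peaks as well, Lifr in mdxTLR4-/- BMDM alone. The windows of the ligands Il11 and Lif and of their own receptor chains Il11ra1 and Lifr thus held H3K27me3 in every genotype. No H3K27me3 peak lay over the start of Lifr in any list. Osm and Il27 had no H3K27me3 in the window, whereas Osmr and Il27ra did. With the list near the background, these pairs are a description and were not tested.

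The feedback inhibitors of JAK-STAT signaling varied more between lists than these 5 genes, in the shortest windows of the pathway genes named (9297 and 9969 bp). Socs1 was covered by H3K27me3 over 59.1%, 46.2% and 18.25% of its window in WT, mdx and mdxTLR4-/- BMDM, and had H3K27ac over its start in all 3. Socs3 was covered over 37.3%, 0% and 18.1% in WT, mdx and mdxTLR4-/- BMDM, respectively, from single peaks of 78 and 41 reads. No H3K27me3 peak lay over the start of Socs1 or Socs3 in any list. The coverage of both genes was lower by 10 points or more in mdx than in WT, as was that of 5.51% of all genes. In mdxTLR4-/- against mdx, Socs1 was lower and Socs3 higher by as much, as were 7.73% and 2.52% of all genes. Whether the inhibitors differ from other genes was not tested. Of the 20 genes, 5 had H3K27ac in all 3 lists, near the share of all protein-coding genes, 26.7%. They were the shared receptor chain Il6st, Il11ra1, the kinase Tyk2, the transcription factor Stat3 and Socs1.

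H3K27ac at marker genes was read as a check of the cell type. All 8 macrophage markers had H3K27ac in every list, and none of the 4 neutrophil, 3 erythroid and 4 muscle markers did. H3K27ac lay at 0 to 1 of 5 T cell markers, 1 to 2 of 4 B cell markers and 2 of 4 fibroblast markers, and all 4 fibroblast markers also had H3K27me3. Tlr4 had an H3K27ac peak over its start in all 3 lists, including mdxTLR4-/-, and since a peak does not show which part of the gene was deleted it does not check that label. H3K27me3 peaks held 8331331 reads, 10199918 and 7358418 in WT, mdx and mdxTLR4-/- BMDM, respectively, and H3K27ac peaks held 274020, 191629 and 168487. Such sums follow the length called as peaks and cannot stand for sequencing depth.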

How the data were processed

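Libraries were ChIP-seq of micrococcal nuclease-digested, uncrosslinked chromatin. The submitters' processing notes name CASAVA 1.8, cutadapt 1.15, Bowtie2 2.3.4 and SICER 2.0. As the methods describe, the authors merged the replicates of a genotype and called peaks on mm10 (200 bp windows, gaps up to 600 bp, FDR below 0.01). The value deposited for each peak was read here as the count of ChIP reads, with no scaling for depth or length and no input subtracted. The 6 deposited lists were used. Library depth is not known.

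The members and lists were chosen with earlier results of these data known. Peaks were matched to GENCODE vM21 windows on chromosomes 1 to 19, X and Y with an overlap of at least 1 bp. Overlapping peaks of the 3 genotypes were joined into regions for ratios of reads per kb, with exact Clopper-Pearson 95% intervals that cover counting error only. A ratio past 1.5-fold or a coverage difference of 10 points was counted as called. With 1 list for each mark and genotype, no p-value was computed. All members were named. Pathway genes were named where H3K27me3 covered 10% of the window in at least 1 list or H3K27ac was in all 3 lists. Gains and losses of H3K27ac in the pathway list are not reported here. The genes closest in pattern had the smallest Euclidean distance in coverage over the 6 lists. Sequences were RefSeq promoters, which matched the GRCm38.p6 genome base for base, and primers were those of the study. Window coverage, the joining of peaks and the ratio intervals were tested on simulated peaks. Alternatives were a stricter density, equal numbers of peaks, at least 10 reads, 600 bp under peaks, 2500 bp around the start, other scalings and joining peaks up to 600 bp apart. Software was pandas 2.3.3, numpy 2.4.6 and scipy 1.17.1 under Python 3.11.15, with figures drawn in matplotlib 3.10.9.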

Additional observations from a re-analysis of the deposited data

How the results depend on the processing

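The presence of H3K27me3 at Il12a, Il11 and Lif, with 3 members in each list, was the same with a stricter density, with equal numbers of peaks, with at least 600 bp under peaks and, in WT, within 2500 bp of the start. In that narrower window Lif had H3K27me3 in WT alone, and so 1 member lost the mark in mdx and 1 in mdxTLR4-/- against WT, as did 1.82% and 2.89% of all genes. Coverage by H3K27me3 there was lower by 10 points for 1 member (Il11) in mdx and in mdxTLR4-/- against WT, as for 7.12% and 9.03% of all genes. The higher coverage of Il12a in mdx against WT, and the lower coverage in mdxTLR4-/- against mdx, went from 1 member to 0 with the stricter density, with equal numbers of peaks and around the start. The upstream mdx peak was not kept under either of the first 2 of these settings.

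The H3K27ac counts rest on few reads. With at least 10 reads they were 1 in mdx and 1 in mdxTLR4-/- BMDM, with 1 loss (Il12b) in mdx and 1 in mdxTLR4-/- against WT (8.68% and 10.8% of all genes) and 0 gains in mdxTLR4-/- against mdx or WT (3.55% and 1.71%). With 600 bp under peaks, 1 member had H3K27ac in mdx BMDM, with 1 loss in mdx against WT (9.6% of all genes) and 2 gains in mdxTLR4-/- against mdx (8.06%). Around the start the counts were 0, 0 and 1 (Il23a) in the lists of WT, mdx and mdxTLR4-/-, compared with 29.4%, 25.2% and 27.3% of all genes.

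The median H3K27me3 density ratio of the member regions moved past the counting interval with the scaling. Mdx to WT was 0.940 per 1000000 reads in peaks, 0.989 relative to the 1st percentile and 0.946 relative to the median of all regions. The ratio of mdxTLR4-/- to mdx was 1.12, 1.03 and 1.03 in that order. The ratio of mdxTLR4-/- to WT was 1.12 and 1.09 under the first pair of scalings, and 0.873 with reads not divided by length. That last setting, chosen after the data were seen, also turned the H3K27ac ratios of mdxTLR4-/- to mdx, to 1.125 for Il12b and 0.882 for Il23a, and those of mdx to WT became 0.615 for Il12b and 0.708 for Il23a. Joining peaks up to 600 bp apart left all median ratios as they were. The remaining 122 values of counts and medians under these settings stayed within 1.5 times the reported count or within the counting interval of the reported median. Over all annotated genes in place of protein-coding genes, H3K27ac lay in the window of 22.7%, 19.3% and 20.2% of genes in the lists of WT, mdx and mdxTLR4-/-.

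No paired analysis was possible because the authors joined replicates ahead of peak calling, and leaving out a replicate was not run for the same reason. The depth of the libraries is unknown, which limits every comparison of read density, and the smallest H3K27ac peaks hold 5 reads.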
